A study of Mus musculus with 6 samples.

Results

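The centromere protein (CENP) genes described here were the 10 genes *Cenpa*, *Cenpc1*, *Cenpe*, *Cenpf*, *Cenph*, *Cenpi*, *Cenpk*, *Cenpm*, *Cenpn* and *Cenpp*, chosen by symbol, and all 10 were present among the 14546 protein-coding genes for which PRO-seq values were listed. PRO-seq labels the RNA held by engaged RNA polymerases in isolated nuclei, so that it measures transcription in progress and not the amount of mature mRNA or protein. Libraries came from proliferating muscle stem cells (MuSCs, the satellite cells of skeletal muscle) of C57BL/6 background mice. The 3 Ctrl libraries carried the genotype Pax7CreERT/Suv4-20h1WT and the 3 *Kmt5b* sKO libraries the genotype Pax7CreERT/Suv4-20h1KO, where Suv4-20h1 is another name of *Kmt5b*, which encodes a methyltransferase of histone H4. Both groups thus carried the Cre recombinase expressed from the *Pax7* locus, which tamoxifen activates in satellite cells, and in the sKO group it deleted floxed *Kmt5b* alleles. The paper gives both sexes for its mice and an adult age, and the labels give neither for single libraries. The 3 libraries of a group are called biological replicates in the paper, but which animals or cultures each was made from is not stated, so p-values measure the spread between these libraries.

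The centromere is the part of a chromosome on which the kinetochore is built, the protein assembly that attaches chromosomes to spindle microtubules in mitosis. It is marked by nucleosomes that hold CENP-A, a variant of histone H3, in place of the usual H3. On these nucleosomes sits the constitutive centromere-associated network, the inner kinetochore, which includes CENP-C, CENP-N, the CENP-H, CENP-I, CENP-K and CENP-M group, and CENP-P. CENP-E and CENP-F join later, in the fibrous corona of the mitotic kinetochore. Many of these genes are transcribed most in the late phases of the cell cycle and are low in cells that have left it. In a bulk culture, fewer cycling cells and less transcription per cycling cell cannot be told apart.

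2 values were listed for each gene and library. The TSS region was the first 400 nt of the listed transcript, and its values, called RPM here, were reads scaled to a common total. That total was smaller than all reads of a library, with 1 read worth 0.24 RPM in Ctrl replicate 1. The gene body, from there to the transcript end, was given in TPM, which also divides by length. The 2 regions were scaled separately. Over all listed genes, 926904 to 3246052 reads per library lay behind the TSS values and 7425433 to 16249192 behind the gene body values, with the fewest in *Kmt5b* sKO replicate 2. For the CENP genes the reads per library ran from 8 to 315 in the TSS region and from 40 to 2513 in the gene body. *Kmt5b* itself was not lower in the sKO libraries, at 30.6, 35.4 and 38.5 TPM in the Ctrl gene bodies and 37.8, 35.0 and 42.6 TPM in the sKO gene bodies, with a log2 difference of 0.14 and an adjusted p of 0.71 (limma), so the genotypes rest on the labels. Markers of satellite cells were present in every library, with *Myod1* at 855 to 1328 TPM and *Pax7* at 25.5 to 53.7 TPM in the gene body.

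All 10 CENP genes had a lower mean in *Kmt5b* sKO than in Ctrl MuSCs, in both regions. Over the 12451 autosomal genes tested, 46.2% had a log2 difference below 0 in the gene body and 41.8% in the TSS region. Values are scaled within each library, so a gene that is lower or fell did so relative to other genes. Across gene bodies, 5 of 10 fell at an adjusted p under 0.1 (limma), namely *Cenpk*, *Cenpe*, *Cenpf*, *Cenph* and *Cenpi*, each to between 0.388 and 0.484 of its Ctrl mean. Of these, 4 were among the 9 autosomal genes, against 1.38% of the 12451 autosomal genes tested that fell and 1.61% that rose. *Cenpi* lies on chromosome X, which the study left out, and its call comes from a fit that included X and Y, in which 1.34% of 12877 genes fell. The sKO libraries all lay below the Ctrl libraries for 9 of 10 CENP genes, against 9.44% of all genes in that fit, and *Cenpn* was the exception. The median log2 difference of the 10 genes was -0.89, and over all tested genes it was 0.023. The plot of gene body values shows the 6 libraries of each gene.

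**Figure D1:**
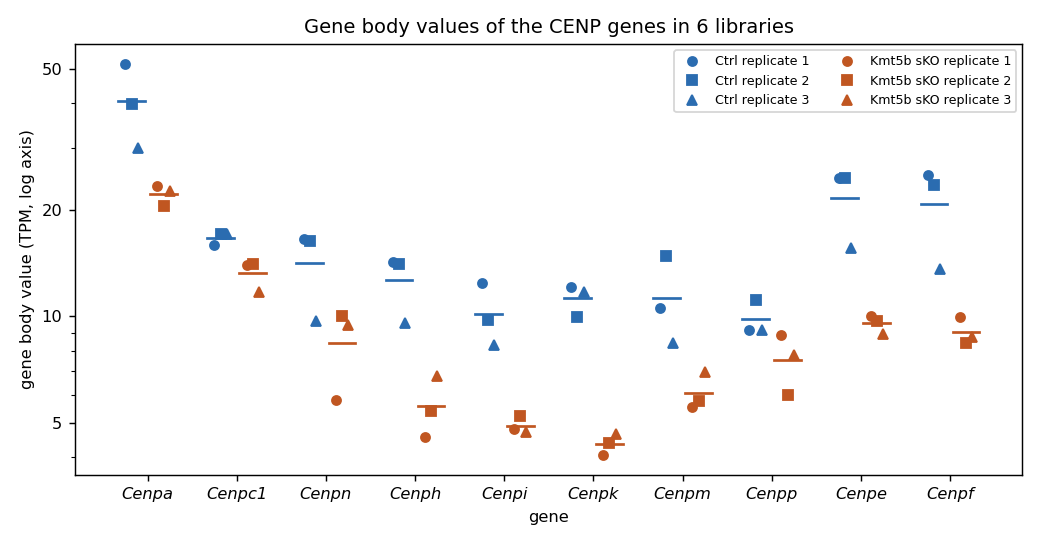
Gene body values (TPM, log axis) of the 10 CENP genes, with 1 point per library, marker shapes for replicate numbers and a bar at each group mean. The 3 *Kmt5b* sKO points lie below the 3 Ctrl points for 9 of 10 genes, *Cenpn* being the exception, and Ctrl replicate 3 is the lowest Ctrl point for 7 of the 10.

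Among the Ctrl libraries, Ctrl replicate 3 stood nearest to the sKO libraries in the CENP genes. Over all tested autosomal genes, its gene body log2 values had a Pearson r of 0.947 and 0.945 with Ctrl replicates 1 and 2. Those 2 had an r of 0.970 with each other. With sKO replicates 1, 2 and 3, Ctrl replicate 3 had an r of 0.951, 0.947 and 0.923. The median over the 10 genes of the gene body log2 value, relative to the Ctrl mean, came to 0.20, 0.18 and -0.36 for Ctrl replicates 1, 2 and 3 against -0.98, -0.90 and -0.81 for sKO replicates 1, 2 and 3, so that the sKO libraries were alike. The number of calls among the 9 autosomal genes depended on the libraries. It was 7 without Ctrl replicate 3, 1 (*Cenpk*) without Ctrl replicate 2, and 0 without Ctrl replicate 1 or any one of the 3 sKO replicates (limma). Of all 12451 genes, 372 were called in either direction with all libraries, 836 without Ctrl replicate 3 and 261 without Ctrl replicate 2. In the other 4 fits with 0 CENP calls, no gene of the 12451 was called. An unadjusted p under 0.05 (limma) was reached there by 6 or 7 of the 9 CENP genes and by 1374 to 1706 of the 12451. The median log2 difference of the CENP genes stayed between -0.81 and -1.02 under every alternative tried.

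The promoter windows of the CENP genes were searched for letters known from genes with cell cycle transcription. Windows from RefSeq (GRCm38.p6) ran from 250 bases before a start site to 50 bases after it, and all 10 genes had 1, the window nearest to the listed start being used. The letters CCAAT, on either strand, were found in 9 of 10 windows, compared with 38.7% of 11079 windows that each belonged to a different listed gene. The CHR letters TTTGAA, on either strand, were found in 3 (*Cenpa*, *Cenpf* and *Cenpn*), compared with 11.6%. An E2F site, written as TTTCCCGC or TTTGGCGC on either strand, was found in 1 (*Cenpm*), compared with 2.96%. In the lists described further down, CCAAT was found in 5 of 9 windows of other inner kinetochore genes, 4 of 8 of the outer kinetochore, 3 of 5 of the corona and SKA list and 12 of 13 of the proliferation list. In the same order, the CHR letters were found in 2 of 9, 4 of 8, 4 of 5 and 7 of 13. All but the first of these lists held the CHR letters more often than the CENP windows. CCAAT matches did not overlap the other motifs in any CENP window. A match is only a match of letters, and *Cenpp* was the single gene with none of the 3. Windows are printed for *Cenpa*, *Cenph*, *Cenpk* and *Cenpf*, whose values are described in most detail, and for *Cenpp* as the window without a match. The sequence runs 5′ to 3′ on the gene's strand, and capitals mark the matched letters.

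*Cenpa* encodes the centromeric histone H3 variant that marks the site of the kinetochore. Its listed transcript lies on the plus strand at chr5:30666777-30674830 (GRCm38), and 337 of the 400 nt of its TSS region are exonic. It had the highest mean gene body value of the 10 in the Ctrl libraries. In replicate order, as for all values given by library here, the gene body values were 51.8, 39.7 and 29.99 TPM for Ctrl against 23.4, 20.6 and 22.6 TPM for sKO. The groups did not overlap, but the Ctrl libraries spread widely, and the log2 difference of -0.82 ± 0.20 (SE) had an adjusted p of 0.11 (limma). The TSS values were 76.3, 51.1 and 51.7 RPM against 28.9, 26.4 and 26.2 RPM. Here the sKO libraries were almost equal, and *Cenpa* fell from 59.7 ± 14.3 to 27.2 ± 1.47 RPM (SD, n = 3 per group), a log2 difference of -1.10 ± 0.24 (SE) with an adjusted p of 0.048 (limma). It was the only one of the 10 called in the TSS region at an adjusted p under 0.05. In the order of all tested autosomal genes, its mean gene body value stood at the percentile 84.3 in Ctrl and 63.7 in sKO. The *Cenpa* window, chr5:30666636-30666935 on the plus strand, holds CCAAT on the opposite strand with its first base at positions -109 and -86 from the RefSeq start, and TTTGAA at position 16.
*Cenpa* promoter: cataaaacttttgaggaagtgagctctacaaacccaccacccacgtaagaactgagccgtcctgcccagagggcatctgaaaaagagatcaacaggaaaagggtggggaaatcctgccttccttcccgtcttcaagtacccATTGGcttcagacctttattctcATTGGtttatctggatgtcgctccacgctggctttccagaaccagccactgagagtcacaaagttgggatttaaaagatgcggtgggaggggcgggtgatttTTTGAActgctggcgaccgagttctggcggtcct

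*Cenpc1* and *Cenpn* encode proteins that contact CENP-A nucleosomes directly. CENP-C, the product of *Cenpc1*, connects these nucleosomes to the rest of the kinetochore, and CENP-N binds CENP-A together with CENP-L. *Cenpc1* (minus strand, chr5:86012024-86065583) differed least of the 10. Its gene body values were 15.9, 17.1 and 17.1 TPM in Ctrl against 13.98, 14.1 and 11.7 TPM in sKO, which did not overlap, with a log2 difference of -0.33 ± 0.14 (SE) and an adjusted p of 0.30 (limma). Its TSS region had 14.8, 7.47 and 12.9 RPM in Ctrl against 14.4, 5.28 and 14.3 RPM in sKO. These groups overlapped, on only 8 to 68 reads per library, and the 95% interval of the log2 difference ran from -0.99 to 0.75. *Cenpn* (plus strand, chr8:116921740-116941503) had 16.5, 16.3 and 9.69 TPM in Ctrl against 5.81, 10.01 and 9.47 TPM in sKO. Ctrl replicate 3 lay within the sKO range, and the adjusted p was 0.28 (limma) for a log2 difference of -0.71. Its TSS values of 51.3, 40.8 and 40.5 RPM in Ctrl against 36.4, 21.8 and 36.8 RPM in sKO did not overlap, but the log2 difference of -0.51 had an adjusted p of 0.51 (limma).

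*Cenph*, *Cenpi*, *Cenpk* and *Cenpm* encode the subunits of 1 complex of the inner kinetochore, which joins CENP-C and CENP-N to the outer layers. All 4 fell in at least 1 region. *Cenpk* (plus strand, chr13:104228955-104247133) had the largest gene body log2 difference of the 10 with all 6 libraries, although not without Ctrl replicate 3. Its gene body values were 12.1, 9.93 and 11.7 TPM in Ctrl against 4.05, 4.38 and 4.66 TPM in sKO, so that the lowest Ctrl library was above 9 TPM and the highest sKO library below 5 TPM. The log2 difference was -1.27 ± 0.15 (SE), 2.41-fold lower, with an adjusted p of 0.061 (limma), on 51 to 314 reads per library. At its TSS region *Cenpk* fell from 59.6, 56.3 and 55.5 RPM to 20.7, 30.4 and 32.7 RPM (log2 difference -1.05 ± 0.25 (SE), adjusted p 0.061, limma). *Cenpk* was therefore called in both regions, and its Ctrl libraries were close to each other in both. RefSeq lists 3 starts for it, and the window nearest to the listed start, chr13:104228716-104229015 on the plus strand, holds CCAAT at position -40 and, on the opposite strand, at position -65.
*Cenpk* promoter: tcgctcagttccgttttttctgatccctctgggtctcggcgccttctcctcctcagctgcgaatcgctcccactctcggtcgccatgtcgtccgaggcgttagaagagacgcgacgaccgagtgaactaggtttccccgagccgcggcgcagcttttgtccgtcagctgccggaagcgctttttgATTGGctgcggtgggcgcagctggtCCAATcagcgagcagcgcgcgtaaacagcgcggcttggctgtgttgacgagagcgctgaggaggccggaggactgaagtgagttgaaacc

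*Cenph* (minus strand, chr13:100759674-100775899) was the other gene called in both regions. Its gene body values were 14.2, 14.1 and 9.60 TPM in Ctrl against 4.55, 5.40 and 6.76 TPM in sKO, without overlap, at a log2 difference of -1.11 ± 0.22 (SE) and an adjusted p of 0.075 (limma). Its TSS values were 21.6, 25.9 and 15.5 RPM against 7.87, 6.6 and 6.44 RPM. The sKO mean was 0.332 of the Ctrl mean, a log2 difference of -1.50 ± 0.34 (SE) with an adjusted p of 0.053 (limma), although only 10 to 24 reads per sKO library lay behind it. The window of *Cenph*, chr13:100775850-100776149 on the minus strand, holds CCAAT at position 31, after the RefSeq start.
*Cenph* promoter: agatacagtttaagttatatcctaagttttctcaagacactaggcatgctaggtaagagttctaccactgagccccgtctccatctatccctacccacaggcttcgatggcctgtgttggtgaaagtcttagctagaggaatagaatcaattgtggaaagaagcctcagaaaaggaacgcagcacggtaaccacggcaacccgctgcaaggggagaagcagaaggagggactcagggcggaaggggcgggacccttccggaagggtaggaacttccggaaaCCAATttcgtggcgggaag

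The other two genes of this complex were called in 1 region each. *Cenpi* (plus strand, chrX:134308084-134362639) had 12.4, 9.75 and 8.28 TPM in Ctrl gene bodies and 4.80, 5.22 and 4.72 TPM in sKO gene bodies. The sKO libraries had an SD of only 0.27 TPM, and *Cenpi* fell with a log2 difference of -0.96 ± 0.18 (SE) and an adjusted p of 0.074 (limma). Its TSS values, 12.6, 8.62 and 9.47 RPM against 6.23, 7.26 and 5.98 RPM, also did not overlap, but the adjusted p was 0.62 (limma) for a log2 difference of -0.60. *Cenpm* (minus strand, chr15:82233779-82244747) was the reverse case, with a call in the TSS region. It fell there from 20.6, 24.1 and 21.0 RPM to 3.28, 8.58 and 11.5 RPM, with a log2 difference of -1.59 ± 0.40 (SE) and an adjusted p of 0.071 (limma). Without sKO replicate 1, which was the lowest, the log2 difference was -1.10. The sKO libraries held 10 to 25 TSS reads and varied by 4.17 RPM (SD). In the gene body *Cenpm* had 10.6, 14.8 and 8.41 TPM in Ctrl against 5.53, 5.78 and 6.94 TPM in sKO, with a log2 difference of -0.81 and an adjusted p of 0.14 (limma). The RefSeq start of *Cenpm* lies 411 nt into the listed transcript, beyond its 400 nt TSS region, so reads at that start counted toward the gene body.

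*Cenpp* encodes a subunit of the CENP-O, CENP-P, CENP-Q and CENP-U group of the inner kinetochore. Its transcript (minus strand, chr13:49464023-49652785) is the longest of the 10, with a body of 188362 nt inside which *Ecm2*, *Aspn*, *Omd* and *Ogn* lie on the opposite strand. Reads were counted on the sense strand only. *Cenpp* had 9.12, 11.1 and 9.17 TPM in Ctrl against 8.85, 6.0 and 7.78 TPM in sKO, on 740 to 2513 reads. The lowest Ctrl and the highest sKO library were close, and the log2 difference of -0.37 ± 0.18 (SE) had an adjusted p of 0.40 (limma). The TSS values of 16.5, 15.5 and 7.96 RPM in Ctrl against 5.90, 6.6 and 10.1 RPM in sKO overlapped, with an adjusted p of 0.52 (limma). *Cenpp* and *Cenpc1* were the 2 genes with the smallest differences in the gene body, and whether they differed from *Cenpk* in response was not tested. The *Cenpp* window, chr13:49652682-49652981 on the minus strand, is printed wholly in lower case because none of the motifs was found in it.
*Cenpp* promoter: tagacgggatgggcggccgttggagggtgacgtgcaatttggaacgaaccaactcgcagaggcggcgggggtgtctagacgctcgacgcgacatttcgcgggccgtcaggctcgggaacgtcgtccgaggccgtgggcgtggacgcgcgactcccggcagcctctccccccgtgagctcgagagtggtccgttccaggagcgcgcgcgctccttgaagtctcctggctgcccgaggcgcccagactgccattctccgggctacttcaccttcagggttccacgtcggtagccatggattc

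*Cenpe* and *Cenpf* encode the large proteins of the corona. CENP-E is a kinesin motor that moves chromosomes towards the spindle equator, and CENP-F is a coiled-coil protein that binds microtubules and recruits dynein regulators. *Cenpe* (plus strand, chr3:135212537-135273611) had 24.6, 24.6 and 15.6 TPM in Ctrl gene bodies and 10.02, 9.71 and 8.93 TPM in sKO gene bodies. It fell from 21.6 ± 5.19 to 9.55 ± 0.56 TPM (SD, n = 3 per group), a log2 difference of -1.11 ± 0.20 (SE) with an adjusted p of 0.069 (limma). For the TSS region, 28.1, 20.1 and 21.4 RPM stood against 11.5, 9.91 and 17.0 RPM. These groups did not overlap, and the adjusted p was 0.26 (limma) for a log2 difference of -0.85.

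*Cenpf* (minus strand, chr1:189640606-189688086) followed *Cenpe* closely in the gene body. Its values were 25.1, 23.6 and 13.6 TPM in Ctrl against 9.97, 8.43 and 8.73 TPM in sKO, at a log2 difference of -1.11 ± 0.24 (SE) and an adjusted p of 0.088 (limma). Without the filter on low values the adjusted p was 0.10 and the call was lost. The TSS values were 49.4, 46.0 and 31.1 RPM in Ctrl against 20.0, 20.5 and 24.8 RPM in sKO, again without overlap, with a log2 difference of -0.92 and an adjusted p of 0.11 (limma). The window of *Cenpf*, chr1:189688037-189688336 on the minus strand, holds CCAAT at positions -132 and -71 and TTTGAA at position 2. It is shown beside that of *Cenpa* because both hold CCAAT and the CHR letters.
*Cenpf* promoter: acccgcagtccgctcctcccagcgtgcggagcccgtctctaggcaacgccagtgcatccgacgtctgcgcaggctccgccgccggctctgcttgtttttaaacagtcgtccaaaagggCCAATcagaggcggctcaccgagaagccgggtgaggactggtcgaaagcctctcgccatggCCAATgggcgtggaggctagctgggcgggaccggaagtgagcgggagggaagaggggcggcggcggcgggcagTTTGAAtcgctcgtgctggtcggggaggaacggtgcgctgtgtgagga

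In the TSS region as a whole, 4 of 9 autosomal CENP genes fell at an adjusted p under 0.1 (limma), namely *Cenpa*, *Cenph*, *Cenpk* and *Cenpm*, against 0.731% of 12451 genes that fell and 0.932% that rose. With X and Y in the fit the count was 4 of 10, against 0.699% of 12877 genes. The groups did not overlap for 8 of 10 genes, against 5.34% of those 12877 genes, and *Cenpc1* and *Cenpp* were the exceptions. The median log2 difference of the 10 was -0.89, compared with 0.081 over all tested genes. Only *Cenph* and *Cenpk* were called in both regions, and 7 of 10 were called in at least 1. *Cenpc1*, *Cenpn* and *Cenpp* were called in neither. All TSS calls of the CENP genes were lost without the filter on low values and without a variance trend, settings under which 0 of all genes were called in this region (limma). The number of TSS calls among the 9 was 0 without Ctrl replicate 1 or sKO replicate 1 (limma). It was 1 without sKO replicate 2 and 2 without sKO replicate 3. Over all 12451 genes these fits called 1, 16, 132 and 46, in that order. An unadjusted p under 0.05 (limma) was reached in each of them by 5 or more of the 9 and by 989 to 1292 of all genes. The number of CENP calls was 4 and 5 without Ctrl replicate 2 and 3, when 408 and 270 of all genes were called.

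**Figure D2:**
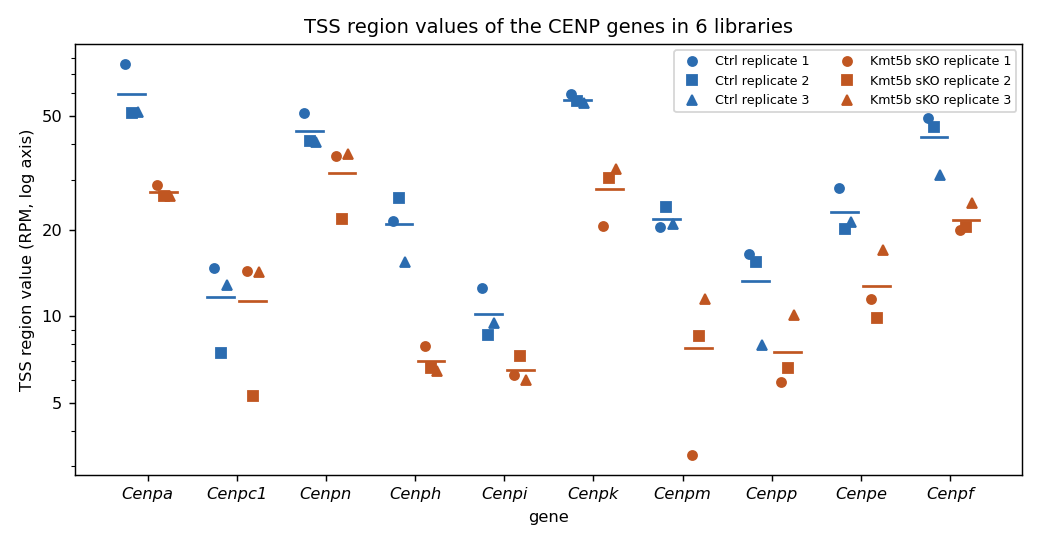
TSS region values (RPM, log axis) of the 10 CENP genes, with 1 point per library, marker shapes for replicate numbers and a bar at each group mean. The 3 *Kmt5b* sKO points lie below all Ctrl points for 8 of 10 genes, and the lowest point is that of *Cenpm* in sKO replicate 1, at 3.28 RPM.

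**Figure D3:**
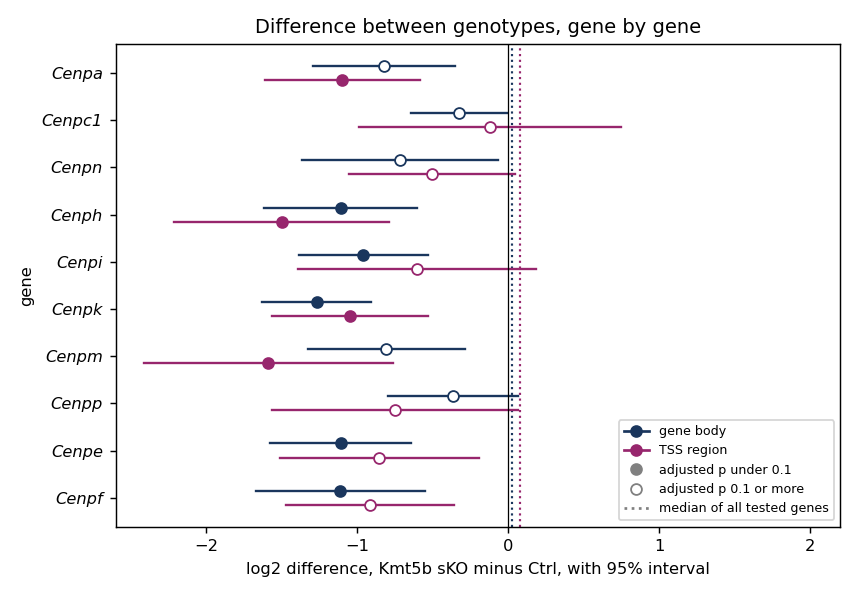
Log2 difference (*Kmt5b* sKO minus Ctrl) of each CENP gene with its 95% interval, for the gene body and the TSS region, with filled points where the adjusted p was under 0.1. All 20 estimates lie below 0 and below the dotted medians of all tested genes, and *Cenpc1* lies nearest to them in both regions.

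Levels can be set in order in the gene body, where TPM is per length. In Ctrl MuSCs the order of mean gene body TPM was *Cenpa*, *Cenpe*, *Cenpf*, *Cenpc1*, *Cenpn*, *Cenph*, *Cenpm*, *Cenpk*, *Cenpi* and *Cenpp*, from 40.5 down to 9.80 TPM. The ranges over the 3 libraries did not overlap between *Cenpa* and its next neighbour, and those of all other neighbours overlapped. In sKO MuSCs the order was *Cenpa*, *Cenpc1*, *Cenpe*, *Cenpf*, *Cenpn*, *Cenpp*, *Cenpm*, *Cenph*, *Cenpi* and *Cenpk*, from 22.2 down to 4.36 TPM. *Cenpa* and *Cenpc1* did not overlap their next neighbours there, and neither did *Cenpi* and *Cenpk*. *Cenpc1* thus stood at the fourth place in Ctrl and the second in sKO, and *Cenpk* at the eighth and the last. In the TSS region, where all windows have the same length, *Cenpa* and *Cenpk* were the highest in Ctrl at 59.7 and 57.1 RPM and overlapped, and *Cenpi* was the lowest at 10.2 RPM.

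The pausing index is the ratio of the TSS value (RPM) to the gene body value (TPM). It asks whether polymerases near the start of a gene changed relative to those in its body. Because the 2 regions were scaled separately, it shows changes relative to other genes, and a shift shared by all genes is scaled out. No CENP gene was called by the index at an adjusted p under 0.1 (limma), with 0 of 9 autosomal genes against 0.0% of 11698 genes. *Cenpi* was not called in the fit with X and Y. No CENP gene had an unadjusted p under 0.05, and 452 of the 11698 genes did. *Cenpk* had the highest index, at 4.93, 5.67 and 4.73 in Ctrl and 5.10, 6.94 and 7.01 in sKO, and these groups overlapped. *Cenpm* had the largest difference, with 1.95, 1.63 and 2.50 in Ctrl and 0.593, 1.48 and 1.66 in sKO (log2 difference -0.82, 95% interval -1.73 to 0.099, and -0.35 without sKO replicate 1). The RefSeq start of *Cenpm* lies outside its TSS region, so reads at that start counted in the gene body of this ratio. *Cenpi* was the single gene whose sKO libraries all lay higher, at 1.02, 0.884 and 1.14 in Ctrl and 1.298, 1.39 and 1.27 in sKO, with a log2 difference of 0.39 (95% interval -0.17 to 0.94). How many of all genes had such separate groups was not counted for the index. The log2 difference was below 0 for 4 genes and above 0 for 6, so the index had no common direction over the 10.

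**Figure D4:**
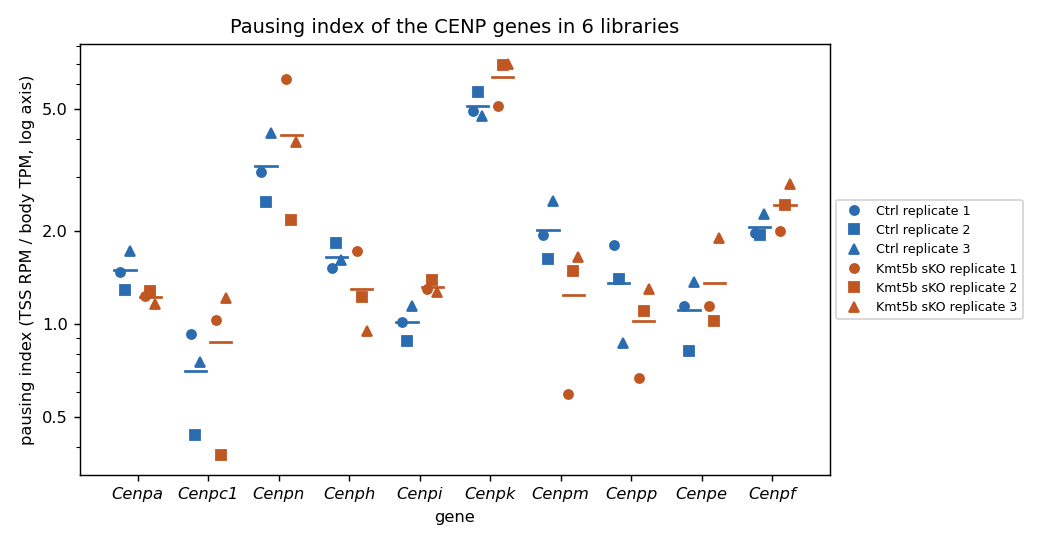
Pausing index (TSS RPM over gene body TPM, log axis) of the 10 CENP genes, with 1 point per library, marker shapes for replicate numbers and a bar at each group mean. The groups overlap for 8 of 10 genes, the exceptions being *Cenpa*, lower in sKO, and *Cenpi*, higher in sKO. Neither was called, and the share of all genes with separate groups was not counted for the index.

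Genes that work with the 10 were grouped in lists by their role, and their counts stand against the 1.38% of all genes that fell in the gene body. Of 10 other CENP genes of the inner kinetochore, 2 fell in the gene body, *Cenpl* (log2 difference -1.20, adjusted p 0.073, limma), the partner of CENP-N, and *Cenpo* (-0.74, 0.066), a partner of CENP-P. Over these 10 genes the median log2 difference was -0.66, and *Cenpb* (0.0095) and *Cenpt* (-0.023) hardly differed. Of 10 genes of the outer kinetochore, which binds microtubules, *Ndc80* (-1.16), *Nuf2* (-1.08) and *Knl1* (-0.81) fell, with a median log2 difference of -0.75. Of 7 genes of the corona and the SKA complex, which stabilises microtubule attachment, 5 fell, *Ska3*, *Kntc1*, *Zwilch*, *Spdl1* and *Ska2*, by log2 differences of -1.03 to -0.84, and the median was -0.89. *Zwint* (-0.048) of the outer kinetochore list and *Zw10* (-0.034) of the corona list hardly differed. No gene of these 3 lists was called as higher. In the TSS region, 3 genes of the outer kinetochore list fell, *Nsl1* (log2 difference -1.29), *Knl1* (-1.21) and *Spc25* (-0.89) (limma). There 0 genes of the other 2 lists were called, and 0.731% of all genes fell. The calls of these lists in the gene body were all lost without Ctrl replicate 1 or without any one of the sKO replicates, and without Ctrl replicate 2 only 3 genes, all of the corona list, were called. Without Ctrl replicate 3 the calls were 4 of 10, 9 of 10 and 6 of 7 genes, in the order of the lists above, when 836 of all 12451 genes were called. The 3 TSS calls of the outer kinetochore list became 0 without Ctrl replicate 1, sKO replicate 1 or sKO replicate 2 (limma). They became 2 without sKO replicate 3, and 5 without Ctrl replicate 3, when 270 of all 12451 genes were called.

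General proliferation genes had differences of the same sign. Of 16 such genes, all 16 were below 0, 7 fell in the gene body and 0 rose. *Ccnb1* was hardly different there, with a log2 difference of -0.020 and an adjusted p of 0.97 (limma). The largest differences among the 7 that fell were those of *Bub1* (log2 difference -1.44), *Ccna2* (-1.31), *Mcm5* (-1.28), *Pcna* (-1.23) and *Top2a* (-1.12), which act in the spindle checkpoint, the cell cycle engine, replication (*Mcm5* and *Pcna*) and DNA untangling. The median of the 16 was -1.04, beside -0.89 for the CENP genes, and a difference between the lists was not tested. The summed gene body value of the 16 was 799 to 1015 TPM in the Ctrl and 490 to 554 TPM in the sKO libraries. Of 16 genes, 4 fell in the TSS region, *Top2a*, *Mcm5*, *Pcna* and *Ccna2*, against 0.731% of all genes. The 7 gene body calls became 13 without Ctrl replicate 3, 4 without Ctrl replicate 2 and 0 without Ctrl replicate 1 or any one sKO replicate (limma). The 4 TSS calls became 9 without Ctrl replicate 3 and 7 without Ctrl replicate 2 (limma), when 270 and 408 of all 12451 genes were called. They became 2 without sKO replicate 2 or 3 and 0 without Ctrl replicate 1 or sKO replicate 1. The part of the proliferating fraction of cells in the values of the CENP genes was not tested.

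**Figure D5:**
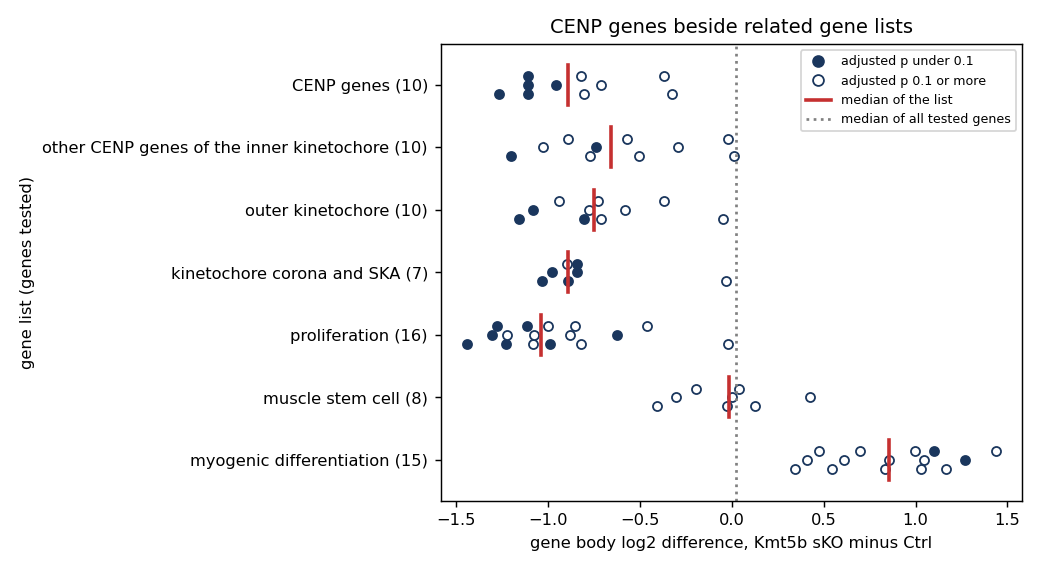
Gene body log2 differences (*Kmt5b* sKO minus Ctrl) of the CENP genes and of related lists, with 1 point per gene, filled where the adjusted p was under 0.1, and a red bar at each list's median. The kinetochore and proliferation lists have medians between -1.04 and -0.66, the muscle stem cell list lies near 0 and the differentiation list has a median of 0.86.

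Markers of differentiating and of other cells moved with the groups in part. Of 15 myogenic differentiation genes, all 15 had a positive gene body log2 difference and 2 rose, *Myl1* (1.1, adjusted p 0.080, limma) and *Tnnc1* (1.27, 0.075), parts of the contractile apparatus. Their summed value was 2677 to 5458 TPM in Ctrl against 5958 to 8463 TPM in sKO. At the TSS region 4 of the 15 rose, *Tnnc2*, *Tnnc1*, *Mef2c* and *Myl1*. Over all genes, 1.61% rose in the gene body and 0.932% in the TSS region. Of 8 muscle stem cell markers tested, 0 were called (limma), the median log2 difference was -0.015, and the sums of 1225 to 1891 TPM in Ctrl against 1524 to 1872 TPM in sKO overlapped. Mature fibre markers summed to 104 to 275 TPM in Ctrl against 256 to 548 TPM in sKO, with 0 of 3 tested genes called. Among markers of other cells, *Sox10*, a glial transcription factor, rose from 3.29 to 10.8 TPM (log2 difference 1.56, adjusted p 0.075, limma), and the 3 glial markers summed to 8.75 to 9.90 TPM in Ctrl against 14.8 to 23.0 TPM in sKO. The gene body calls of *Myl1*, *Tnnc1* and *Sox10* were lost without Ctrl replicate 1 or any one sKO replicate, when 0 of 12451 genes were called (limma). The 5 fibroblast markers with values summed to 82.1 to 155.3 TPM in Ctrl against 95.4 to 127.6 TPM in sKO, and the 3 pericyte markers to 29.95 to 65.2 TPM and 49.4 to 58.5 TPM. The 3 endothelial markers with values summed to 2.50 to 4.23 TPM and 4.38 to 5.05 TPM. Of the immune markers, *Cd68* and *Itgam* together had 214 to 402 TPM in Ctrl and 320 to 326 TPM in sKO, nearly all of it from *Cd68*, while *Ptprc*, *Csf1r*, *Adgre1* and *Lyz2* were not analysed here. The part of differentiating or other cells in the CENP values was not tested.

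The genes most like the CENP genes over the 6 libraries were found by the correlation of their gene body log2 values with the scaled mean of the 9 autosomal CENP genes. Of 12442 other genes, 453 had a Pearson r over 0.9, and the 10 highest were *Depdc1a*, *Smc4*, *Ccdc82*, *Chd7*, *Kif11*, *Sgo2a*, *Cdc25c*, *Fen1*, *Xrcc2* and *Slc43a3*, with r from 0.998 to 0.992. This is a description over 6 libraries of 2 groups, in which all genes share the libraries. *Kif11*, a spindle motor, had 27.6, 26.5 and 17.7 TPM in Ctrl against 10.5, 10.4 and 11.4 TPM in sKO, with the low value in Ctrl replicate 3 that *Cenpe* and *Cenpf* also had. *Chd7*, a chromatin remodeller, had the same shape at a smaller size, with a log2 difference of -0.31 and an adjusted p of 0.25 (limma). The 9 genes themselves had r from 0.77 (*Cenpp*) to 0.99 (*Cenpe*) with their own mean, which contains them.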

How the data were processed

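PRO-seq was performed on proliferating MuSCs of 3 Ctrl and 3 *Kmt5b* sKO samples. Per the labels and the paper, the authors used Trimmomatic 0.39 for trimming, STAR 2.6.1d for alignment to GRCm38 and Picard 2.18.16 for removing duplicates, and counted sense reads in both regions of 1 isoform per gene. The deposited gene body values are TPM, and the deposited TSS values, called RPM here, are whole multiples of 1 constant per library. The paper names TPM for both, and over regions of equal length TPM is also a multiple of the reads. The 2 regions were scaled separately. Genes whose mean reached 0.5 in each region were tested, and X and Y were left out except for *Cenpi*.

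Values were tested as log2(value + 0.5), a scale on which differences of low genes are understated, by limma 3.58.1 in R 4.3.3. The model held genotype alone, eBayes used a mean-variance trend, and calls were made where p, adjusted by Benjamini-Hochberg over all genes tested, was under 0.1. The pausing index was tested as a log2 ratio without a pseudocount. Intervals are 95% intervals of that fit. The script was tested on simulated data. The steps of low values gave back the reads behind them, as whole reads for 100% of TSS values and for 100% of gene body values of genes with a body under 2000 nt, and were used in edgeR 4.0.16 and DESeq2 1.42.0 as alternatives. Other alternatives changed the pseudocount, the filter, the scaling, the variance model, the threshold and the replicates used.

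All 10 CENP genes are named, and from each related list the genes called, or the 5 largest where over 5 were called. Some list genes that hardly differed are named beside them. The result of 1 list is not reported here. The members and lists were chosen with earlier results of these data known. Figures were drawn with Python 3.11.15 and matplotlib 3.10.9.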

Additional observations from a re-analysis of the deposited data

How the results depend on the processing

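The median log2 difference of the CENP genes kept its direction and size under every alternative, from -0.81 to -1.02 in the gene body and from -0.79 to -1.07 in the TSS region. The number of the 9 autosomal CENP genes called did not. In the gene body, where 4 were called, the count was 0 at an adjusted p under 0.05, 7 with DESeq2 on recovered reads, 5 with edgeR on the same reads, and 0 to 7 with single replicates left out. In the TSS region, also with 4, it was 1 at an adjusted p under 0.05, 0 without the filter on low values, 0 without a trend in eBayes, 5 with edgeR, 5 with DESeq2, and 0 to 5 with single replicates left out. Over all 12451 genes, 372 were called in the gene body by limma, 748 by edgeR and 1295 by DESeq2, and 207, 279 and 295 in the TSS region. Without the filter, 0 of 14068 genes were called in the TSS region by limma, with 1448 at an unadjusted p under 0.05. Single genes turned direction only with a replicate left out. The log2 difference of *Cenpc1* then ran from -0.40 to 0.33 in the TSS region and from -0.11 to 0.73 in the pausing index, that of *Cenpe* from -0.0058 to 0.44 and that of *Cenpn* from -0.13 to 0.63 in the pausing index. The causes were not tested. Low TSS reads, down to 8 in a library for *Cenpc1*, limit what can be seen there.

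Replicate numbers were tested as a replicate block. Same-numbered libraries had deviations from their group means that correlated at -0.15, -0.17 and -0.33 in the gene body. In the TSS region these deviations correlated at -0.034, -0.13 and -0.16. Deviations of libraries with different numbers correlated at -0.074 to 0.23 in the gene body and at -0.040 to 0.16 in the TSS region. Whether libraries of the same number share a batch is not stated, so pairing by number is not known. With the block, 0 of 9 CENP genes and 0 of all 12451 genes were called in either region (limma). An unadjusted p under 0.05 (limma) was reached by 6 of the 9 in each region. Of all genes, 1441 reached it in the gene body and 1141 in the TSS region.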

Other observations

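3 CENP genes start within 1000 nt of a gene that is transcribed in the opposite direction, and these neighbours were chosen after their values were seen. *Ppwd1*, a peptidyl-prolyl isomerase gene that starts 133 nt from *Cenpk*, had 15.4, 14.8 and 14.5 TPM in Ctrl gene bodies and 12.6, 12.5 and 10.8 TPM in sKO gene bodies (log2 difference -0.31, adjusted p 0.31, limma), beside -1.27 for *Cenpk*. *Cmc2*, a mitochondrial assembly gene 285 nt from *Cenpn*, had a gene body log2 difference of -0.19 (adjusted p 0.76, limma), beside -0.71 for *Cenpn*. *Nol8*, a nucleolar protein gene 293 nt from *Cenpp*, had one of -0.093 (adjusted p 0.85, limma), beside -0.37 for *Cenpp*. None of the 3 was called in the TSS region, where the log2 differences were -0.54, -0.84 and -0.0039. The difference between a CENP gene and its neighbour was not tested.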
